A study of Homo sapiens with 8 samples.

Results

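Histone variant genes outside replication are the genes for histones that are not made and deposited only with new DNA. Of 9 such genes chosen from a list (H2AZ1, H2AZ2, H3-3A, H3-3B, MACROH2A1, MACROH2A2, H2AX, H1-10 and CENPA), 6 had a gene row of their own among 62635 in the short-read table, and all 9 had named transcripts in the long-read table. Rows of the assembler were named by the same-strand GENCODE gene that overlapped them best, at a Jaccard index of the spans of at least 0.5. The remaining 3 genes lay inside rows that did not take their name. H2AZ2 lay in an unnamed row at an index of 0.448, just under the minimum, while the lowest index among the 6 rows was 0.895, for H3-3A. H2AX lay in the row of DPAGT1 and H2AZ1 in the row of DNAJB14, so those values hold 2 genes or more and are given only as values of the row. The CENPA row took its name but also spanned SLC35F6.

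The cells were HAP1, an established near-haploid human leukemia line, with no treatment that differed between groups. Nuclei were separated with a urea and detergent buffer into a chromatin pellet and a soluble nucleoplasm, the same volume of ERCC RNA standards was added to both, and ribosomal RNA was depleted. Directional short reads came from 3 chromatin and 3 nucleoplasm libraries, and long reads from 2 chromatin libraries whose RNA had first been polyadenylated by enzyme. The comparison asked which RNA stayed with chromatin. In these bulk libraries, less of an RNA per nucleus and fewer nuclei that hold it cannot be told apart. It measures a distribution inside the nucleus, and cytoplasmic RNA was not analysed here.

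Most core histone genes are switched on only in S phase, have no introns, and end their mRNA in a short stem-loop in place of a poly(A) tail. Variant genes mostly have introns and poly(A) tails and are not read in S phase alone. H2A.Z (H2AZ1, H2AZ2) marks promoters and enhancers, H3.3 (H3-3A, H3-3B) replaces H3 in active genes and at telomeres, macroH2A (MACROH2A1, MACROH2A2) carries a large globular domain and is known from the inactive X chromosome and silent chromatin, H2AX is phosphorylated at DNA breaks, H1-10 is a linker histone, and CENPA is the H3 variant that defines the centromere.

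The structure of the members set them beside the replication-dependent genes before any count was compared. In GENCODE on hg38, 7 of 9 members had introns in their canonical transcript, from 4 exons in H3-3A and H3-3B to 9 exons in both macroH2A genes, while H2AX and H1-10 had 1 exon. All 68 replication-dependent histone transcripts had 1 exon. A poly(A) signal (AATAAA or ATTAAA) lay in the last 50 bases of 7 of 9 members, all but H2AZ2 and MACROH2A1, against 3 of 68 replication-dependent transcripts and 77.4% of 20046 coding transcripts. The histone stem-loop, searched on the transcript strand as a 16-base consensus, was in 68 of 68 replication-dependent transcripts, in 0.399% of coding transcripts and, among the members, in H2AX alone. The sequences below show both kinds of end, with the stem-loop or the poly(A) signal in capitals. H1-2 and H4C1 stand for the replication-dependent genes.
H1-2: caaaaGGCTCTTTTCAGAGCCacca
H4C1: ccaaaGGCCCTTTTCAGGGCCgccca
H2AX, stem-loop: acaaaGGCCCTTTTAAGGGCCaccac
H2AX, poly(A) signal: aattttATTAAAggattgtttttt
H1-10: gggcacAATAAAgcgtttaaacct
H3-3B: gactaaAATAAAatttttgaagtt
H3-3A: aaatacATTAAActatacctgctt
In H2AX the stem-loop began 49 bases after the stop codon. The poly(A) signal ended 19 bases before the end of the same 1592-base transcript, so this gene carried both ends. H1-10 had 1 exon and no stem-loop.

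Of the 6 members with their own row, 4 were higher in nucleoplasm, 1 was higher in chromatin and 1 did not pass the test (limma on log2(normalized count + 1), adjusted p under 0.05), while an equal total per library put 2 higher in chromatin and equal ERCC totals 0. On the deposited scale, 45.2% of the 26066 genes tested were higher in nucleoplasm and 44.2% in chromatin by the same rule. A pass in either direction was therefore common, and shares of all genes are given on this scale alone. Past a 4-fold difference the members held 1 call in nucleoplasm, H1-10, where the background was 8.47%, and 0 in chromatin, where it was 21.2%. The count in chromatin was 0 with limma, edgeR and DESeq2, and without the fold minimum it was 1, MACROH2A1, at an adjusted or unadjusted p under 0.05. The median log2 difference, chromatin minus nucleoplasm, was -1.24 over the 6 members and -0.02 over all genes tested. All 6 rows had fractions that did not overlap, 5 with nucleoplasm above chromatin (background 46.0%) and 1 with chromatin above nucleoplasm (background 44.6%).

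**Figure D1:**
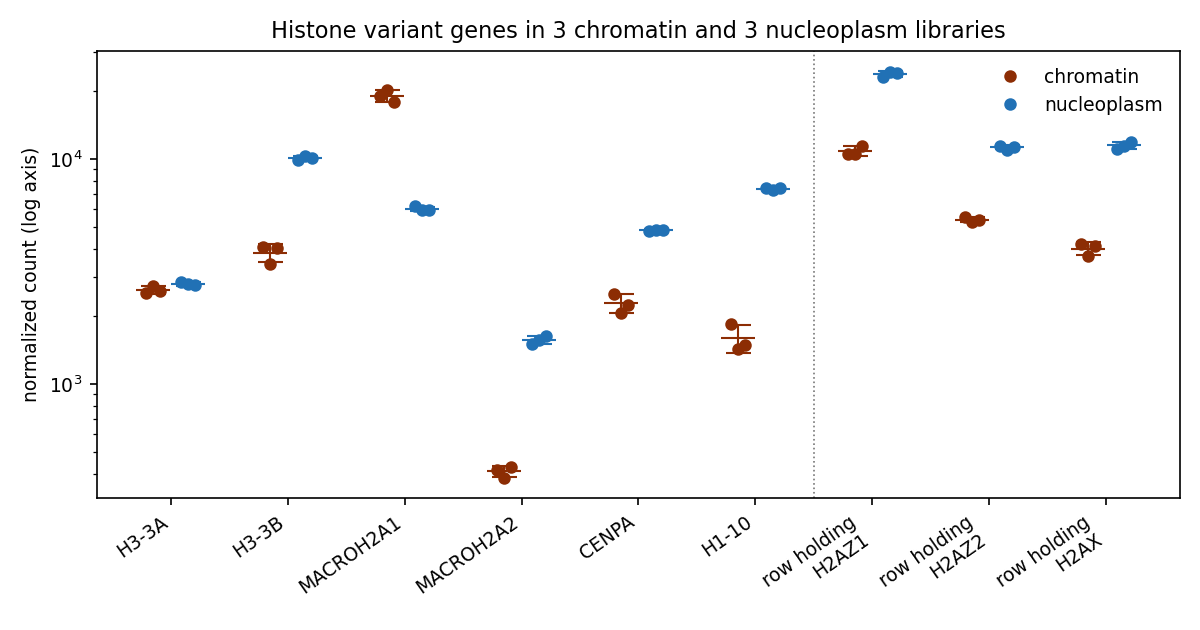
Normalized counts (log axis) of the histone variant genes in each of 3 chromatin (brown) and 3 nucleoplasm (blue) libraries. Points are libraries, and horizontal marks with bars are the mean and SD. To the right of the dotted line are the rows that hold H2AZ1, H2AZ2 and H2AX without taking their name. On the deposited scale MACROH2A1 alone was higher in chromatin, joined by H3-3A where each library was given an equal total, and H3-3A was nearly level at means of 2622 and 2793.

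H3-3A and H3-3B encode the same H3.3 protein, and their RNA divided differently between the fractions. H3-3A had 2546, 2737 and 2583 normalized counts in chromatin and 2856, 2773 and 2749 in nucleoplasm. The means were 2622 ± 101 and 2793 ± 55.9 (SD, n = 3). The nearest libraries of the fractions were 2737 and 2749, and the log2 difference of -0.09 (SE 0.047) did not pass (limma adjusted p = 0.0943). H3-3B had 4047, 3425 and 4031 in chromatin and 9916, 10283 and 10128 in nucleoplasm. Every nucleoplasm library was above every chromatin library by more than a factor of 2, and the log2 difference was -1.40 (SE 0.068, limma adjusted p = 1.4e-07).

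The ratio of H3-3A to H3-3B within a library, which does not depend on how libraries are scaled, was 0.629, 0.799 and 0.641 in chromatin and 0.288, 0.270 and 0.271 in nucleoplasm. The ratio was thus 2.48-fold higher in chromatin, and the fractions did not overlap. It uses the H3-3A row without reads placed at the near-identical copies described below. With these added, the log2 difference of H3-3A was -0.55 in place of -0.09, and the ratio was not taken again. The exact two-sided permutation test gave p = 0.1, the smallest that 3 against 3 allows, and 0.1 after adjustment over 2 pairs, so this test cannot reach 0.05 with 3 libraries a fraction.

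Reads of the H3.3 pair could be told apart at the coding sequence, although the protein is the same. The 408 coding bases of H3-3A and H3-3B differed at 88 positions, 77 of them at the third position of a codon, an identity of 78.4%, and the longest identical run was 14 bases. None of the 359 windows of 50 bases, the read length, was identical between them (0 of 359). The first 20 codons of each are shown because they hold 13 of these differences, which are in capitals.
H3-3A: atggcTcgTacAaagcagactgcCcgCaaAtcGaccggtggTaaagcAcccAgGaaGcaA
H3-3B: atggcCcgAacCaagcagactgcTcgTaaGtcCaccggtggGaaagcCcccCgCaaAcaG

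H3-3A did share sequence with other loci. A search of hg38 with the H3-3A coding sequence found 13 intronless copies of at least 90% identity over at least 80% of its length, and the copy at H3P6 was identical (100%). No copy of this kind was found for MACROH2A1, MACROH2A2, H2AX, H1-10 or CENPA, and 1 was found for H3-3B, the H3.5 gene H3-5, at 96.6%. H3P6 had 143, 122 and 130 normalized counts in chromatin and 507, 486 and 473 in nucleoplasm, a log2 difference of -1.89 (limma adjusted p = 7.33e-08). H3P16, at 99.3% identity, had means of 116 in chromatin and 427 in nucleoplasm, a log2 difference of -1.88. The nucleoplasm libraries lay above the chromatin libraries at both pseudogenes, unlike the near-level row of H3-3A itself.

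**Figure D2:**
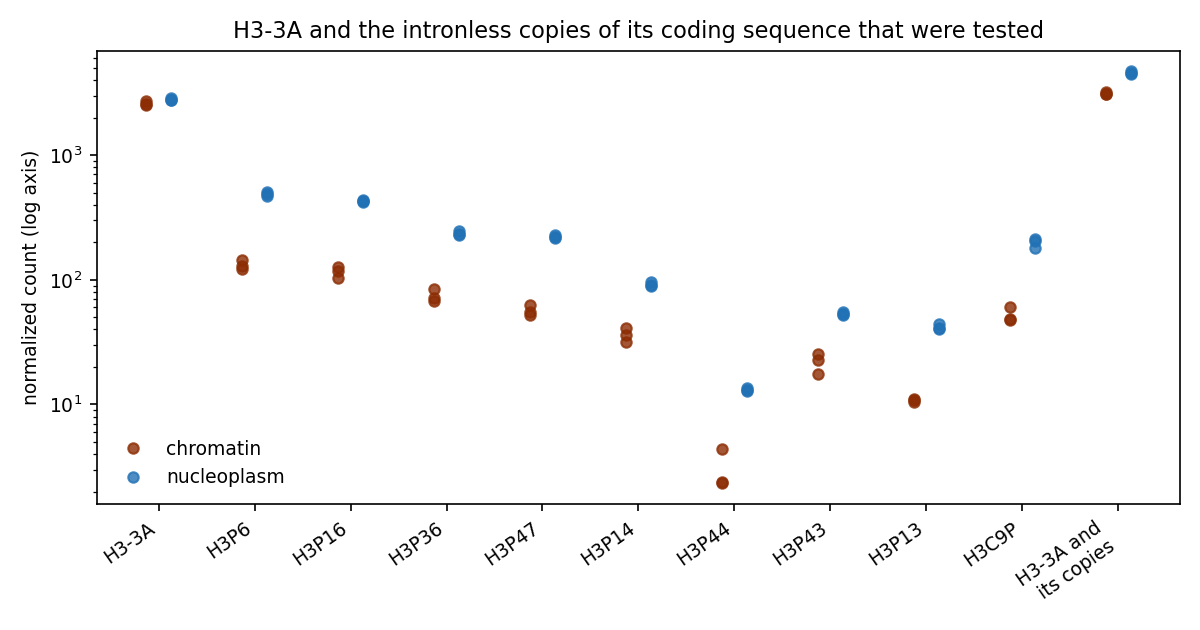
Normalized counts (log axis) of H3-3A, of the 9 of its 13 intronless copies that were tested, in order of identity, and of the sum of H3-3A with all 13, in 3 chromatin (brown) and 3 nucleoplasm (blue) libraries. Points are libraries. Each tested copy sat higher in nucleoplasm, though H3P44 passed the filter through its nucleoplasm values alone. The sum had means of 3131 and 4581.

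Summed over the 13 copies, chromatin held 509 normalized counts and nucleoplasm 1788. Added to the H3-3A row, they gave 3108, 3214 and 3070 in chromatin and 4699, 4561 and 4483 in nucleoplasm, a log2 difference of -0.55 (SE 0.043, limma adjusted p = 3.04e-06). The call for H3-3A therefore depended on whether reads placed at the copies were counted with the gene, a sum chosen after its values were seen. Which locus those reads came from was not tested. The same sum for H3-3B with H3-5 left its difference at -1.43.

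MACROH2A1 was the member higher in chromatin, and its paralog MACROH2A2 lay on the other side. MACROH2A1 had 19039, 20281 and 18002 normalized counts in chromatin and 6168, 5955 and 5907 in nucleoplasm. The means were 19107 ± 1141 and 6010 ± 139 (SD, n = 3). The fractions lay far apart, at 3.18-fold and a log2 difference of 1.67 (SE 0.054, limma adjusted p = 1.9e-08), short of the 4-fold minimum. MACROH2A2 had 415, 384 and 428 in chromatin and 1510, 1576 and 1636 in nucleoplasm. It was 3.85-fold higher in nucleoplasm, at -1.94 (SE 0.062, limma adjusted p = 1.78e-08).

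The MACROH2A1 to MACROH2A2 ratio within a library was 45.9, 52.8 and 42.0 in chromatin and 4.08, 3.78 and 3.61 in nucleoplasm. It was 12.2-fold higher in chromatin, with no overlap of the fractions, and the exact two-sided permutation p was 0.1, the smallest possible here (0.1 adjusted over 2 pairs). The genes have similar build. Both have 9 exons and 1116 coding bases, and their spans are 65534 bases for MACROH2A1 on chromosome 5 and 59739 bases for MACROH2A2 on chromosome 10. Exons made up 2.96% and 3.25% of the span of the canonical transcript.

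**Figure D3:**
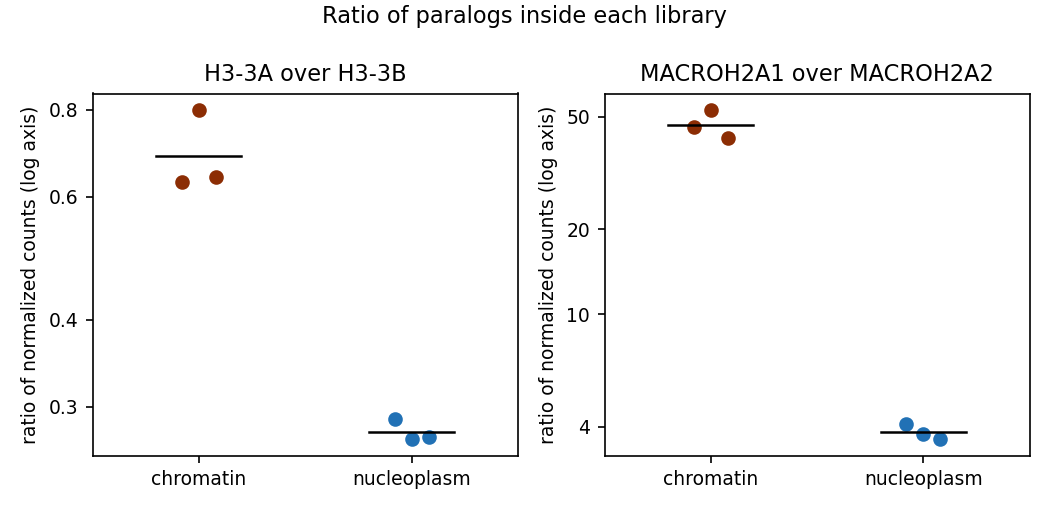
Ratio of normalized counts (log axes) of H3-3A over H3-3B and of MACROH2A1 over MACROH2A2 in each of 3 chromatin (brown) and 3 nucleoplasm (blue) libraries. Points are libraries and black lines the mean of the log2 ratios. Both ratios were higher in every chromatin library than in every nucleoplasm library, by 2.48-fold and 12.2-fold. H3-3A is counted here without its copies.

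H1-10 had the largest difference of the 6 rows on the deposited scale, while with an equal total per library MACROH2A1 (2.13) passed it (-1.75). It had 1855, 1434 and 1498 normalized counts in chromatin and 7413, 7294 and 7409 in nucleoplasm. The nucleoplasm libraries lay within a narrow range, above the chromatin libraries by 4.62-fold, at -2.22 (SE 0.09, limma adjusted p = 4.94e-08). The neighbouring opposite-strand gene H1-10-AS1, which overlaps it, did not pass at -0.10 (limma adjusted p = 0.308).

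CENPA had 2520, 2078 and 2254 normalized counts in chromatin and 4766, 4850 and 4860 in nucleoplasm. The fractions did not overlap, and the log2 difference was -1.08 (SE 0.069, limma adjusted p = 7.5e-07). SLC35F6 lies on the same strand inside the CENPA row, so its counts are not those of CENPA alone. A separate same-strand locus inside it, at chr2:26795035-26798262 of hg38, averaged 1318 ± 109 normalized counts (chromatin) and 1124 ± 92.8 (nucleoplasm; SD, n = 3). This inner locus was higher in chromatin, at 0.23 (SE 0.081, limma adjusted p = 0.0249), against the direction of the row around it.

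The 3 rows that hold the other members were all higher in nucleoplasm. The row with H2AZ1 and DNAJB14 had 10503, 10559 and 11464 normalized counts in chromatin and 23091, 24448 and 24138 in nucleoplasm, at -1.14 (SE 0.052). The unnamed row with H2AZ2 had 5516, 5267 and 5350 in chromatin and 11474, 11006 and 11334 in nucleoplasm, at -1.07 (SE 0.042). The row with H2AX and DPAGT1 had 4179, 3699 and 4126 in chromatin and 11100, 11421 and 11949 in nucleoplasm, at -1.52 (SE 0.059). In none of the 3 did the fractions overlap, and the largest of their limma adjusted p-values was 9.5e-08. How much of each row was the histone gene could not be read from a table of gene rows. Like the H3.3 genes, H2AZ1 and H2AZ2 encode nearly the same protein from coding sequences that differ, at 75 of 384 bases (64 at the third position of a codon), with a longest identical run of 23 bases. The first 20 codons are shown with the 12 differences in capitals.
H2AZ1: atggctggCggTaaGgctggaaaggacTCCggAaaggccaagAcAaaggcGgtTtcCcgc
H2AZ2: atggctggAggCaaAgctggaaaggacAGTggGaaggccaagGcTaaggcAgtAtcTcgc

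Levels were compared between genes as normalized counts per kb of the canonical transcript. The CENPA row also spans SLC35F6 but was divided by a length of CENPA alone. Its values per kb and its places in the orders below are therefore those of the row, not of CENPA. In chromatin and by this length MACROH2A1 stood highest at 9967 ± 595, the 99.3 percentile of 12493 coding genes, followed by H3-3A at 2450 ± 94.6, CENPA at 1644 ± 160, H3-3B at 1418 ± 131, H1-10 at 1053 ± 150 and MACROH2A2 at 212 ± 11.6 (SD, n = 3). The libraries of CENPA and H3-3B overlapped, at 1496 to 1814 and 1266 to 1496, so these neighbours were not separated by their spread. In nucleoplasm the order began with H1-10 at 4863 ± 44.6, then H3-3B at 3737 ± 68.2, CENPA at 3474 ± 37.0, MACROH2A1 at 3135 ± 72.3, H3-3A at 2610 ± 52.3 and MACROH2A2 at 815 ± 32.4. No neighbours overlapped in nucleoplasm. MACROH2A2 stood lowest in both fractions, at the 35.9 percentile in chromatin and the 65.4 percentile in nucleoplasm. The union of all annotated exons as the length lowered the levels of all but H1-10 and changed this order. In chromatin CENPA, at 1172 per kb, then stood above MACROH2A1, at 1123, and H1-10, at 1053. In nucleoplasm MACROH2A1 fell behind H3-3A, at 353 against 730 per kb, and MACROH2A2 stayed lowest in both fractions. Only the place of MACROH2A2 therefore held with both lengths and in both fractions.

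The scale between libraries bears on every direction given here. The median of all genes tested was -0.02 as deposited, 0.44 when every library was given an equal total and -1.33 when every library was given an equal ERCC total. On the ERCC scale MACROH2A1 was at 0.34 (limma adjusted p = 0.0925) and no longer passed, and H3-3A was at -1.41. With an equal total H3-3A turned to 0.37 (limma adjusted p = 0.000344). Relative to the median of all genes, MACROH2A1 stood at 1.69, 1.69 and 1.67 on the deposited, equal-total and ERCC scales. H3-3A stood at -0.07, -0.07 and -0.09. A scaling factor per library shifts every gene and the median nearly alike, so these values could hardly move and test nothing.

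The replication-dependent histone genes gave the contrast. Of 68 listed, 52 had a named row and 39 were tested. Of those tested, 37 were higher in nucleoplasm and 2 in chromatin, and 31 were called past 4-fold in nucleoplasm (background 8.47%). The 2 in chromatin reached 10 normalized counts in all 3 libraries of chromatin but not of nucleoplasm, so the filter favoured their direction. With an equal total per library 11 were called and the median was -1.85, where the median of all genes tested was 0.44. With equal ERCC totals 37 were called, where the median of all genes tested was -1.33. Their median log2 difference was -2.31, below the -1.24 of the 6 members. H1-4, the linker histone gene with the highest level of the list, had means of 23756 ± 1359 in chromatin and 117306 ± 7019 in nucleoplasm (SD, n = 3), at -2.30. H1-2 was at -2.41 and H4C3 lowest at -2.95. The highest was H2AC13 at 1.83, with 27.4 to 36.1 normalized counts in chromatin and 6.03 to 11.4 in nucleoplasm. H1-10, the member with 1 exon and a row of its own, lay near the median of these genes at -2.22, and the 4 other members higher in nucleoplasm or level lay above it, from -1.94 for MACROH2A2 to -0.09 for H3-3A.

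Summed over the list, replication-dependent histone genes held 136302 ± 7927 normalized counts in the chromatin libraries and 701694 ± 41413 in the nucleoplasm libraries (SD, n = 3). The 6 members together held 29853 ± 916 and 32683 ± 51.9, a nearly level sum to which MACROH2A1 gave 19107 in chromatin. Of pseudogenes with symbols beginning with H3P, H2AZP or H2AZ2P, 11 were tested, all higher in nucleoplasm (background 45.2%), with a median of -1.87. H3P44, 1 of the 11, passed the filter through its nucleoplasm values alone. Past 4-fold, 2 were called in nucleoplasm (background 8.47%), against 1 with an equal total per library and 11 with equal ERCC totals. The symbol alone does not tie an H3 pseudogene to H3-3A or H3-3B, and H3P4 and H3P23 were not among the copies found with a member's coding sequence. The 2 called were H2AZP3, at 94.8% identity to H2AZ1, with means of 51.8 and 502 and a log2 difference of -3.28, and H3P4 at -2.41.

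**Figure D4:**
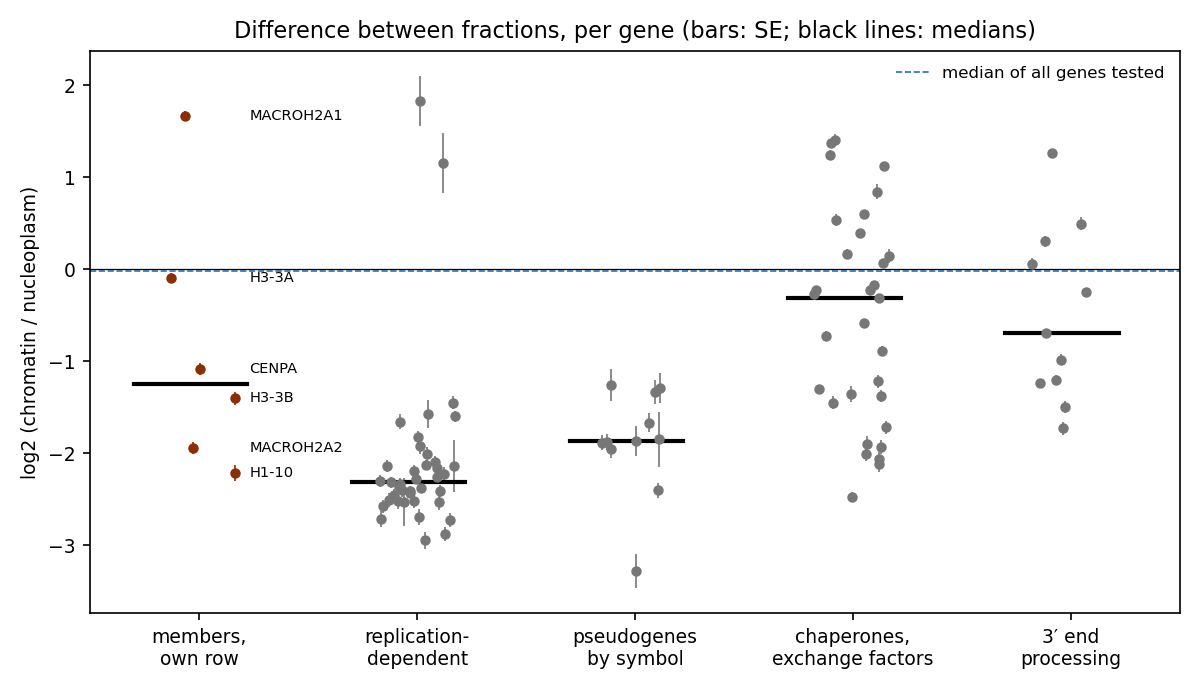
Log2 difference (chromatin over nucleoplasm) of each tested gene in 5 lists: the 6 members with their own row (brown, named), replication-dependent histone genes, H3P and H2AZ pseudogenes by symbol, chaperones and exchange factors, and 3′ end processing factors. Bars are SE, black lines list medians (-1.24, -2.31, -1.87, -0.31 and -0.70), and the dashed line is the median of all genes tested.

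Genes for chaperones and exchange factors, which put variant histones into chromatin or take them out, lay on both sides. Of 31 tested of 33 listed, 9 were higher in chromatin (background 44.2%), 20 in nucleoplasm (background 45.2%) and 2 did not pass. Past 4-fold, 4 were called in nucleoplasm (background 8.47%), and 1 with an equal total per library. The list median of -0.31 turned to 0.15 when every library had an equal total. MIS18A, needed to load CENP-A, was lowest at -2.47, with means of 581 ± 35.2 in chromatin and 3231 ± 83.0 in nucleoplasm (SD, n = 3). ATM, the kinase that phosphorylates H2AX, was highest at 1.41, with 15529 ± 1334 and 5843 ± 164. The genes of the list with the highest levels were NAP1L1, a histone carrier, at 0.17 (limma adjusted p = 0.0153), and SSRP1, a subunit of the FACT complex, at -2.01.

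Genes of 3′ end processing of replication-dependent histone mRNA, several of which also cleave polyadenylated mRNA, numbered 11. Of these, 3 were higher in chromatin (background 44.2%), 7 in nucleoplasm (background 45.2%) and 1 did not pass, with a median of -0.70. NPAT, which activates histone genes in S phase, was highest at 1.26, and LSM10, a subunit of the U7 particle, lowest at -1.73. SLBP, which binds the stem-loop, was at -1.50 and the cleavage factor CPSF2 at -0.98. Of 3 other histone genes outside replication, 2 were tested, both higher in nucleoplasm (background 45.2%), H2AJ at -1.18 and H3-5 at -1.98.

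Several members had an opposite-strand neighbour that overlapped them or started within 1 kb of their start. H3-3A-DT, a long noncoding RNA whose annotated start is 47 bases from that of H3-3A, had 297, 311 and 300 normalized counts in chromatin and 43.9, 40.5 and 51.5 in nucleoplasm. It was 6.68-fold higher in chromatin, at 2.72 (SE 0.11, limma adjusted p = 5.24e-08), beside the near-level H3-3A. PITX1-AS1, which overlaps MACROH2A1, was also past 4-fold in chromatin, at 2.58 (SE 0.14). H2AZ2-DT was at 1.15 (SE 0.16) and H2AZ1-DT at 0.62 (SE 0.15), higher in chromatin than in nucleoplasm while the rows holding H2AZ2 and H2AZ1 went the other way. The coding neighbours UNK, at H3-3B, and AIFM2, at MACROH2A2, were at -0.24 and -0.40, and ENSG00000270021, at MACROH2A1, was too low to be tested.

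The start regions of the members were read from RefSeq promoter windows on GRCh38.p14, each of 300 bases that end 50 bases after a start. A CCAAT box (CCAAT, or ATTGG on the other strand) was in 6 of 9 members and in 34.6% of 35116 windows. A GC box (GGGCGG or CCGCCC) was in 6 of 9 and in 44.95%, and TATAAA (or TTTATA) in 4 of 9 and in 11.5%. H3-3B, H2AX and H2AZ2 had 4 CCAAT boxes each, and MACROH2A1, MACROH2A2 and H1-10 had 0. The windows of H3-3B and MACROH2A1 are shown as the members lower and higher in chromatin with the most and fewest of these letters, CCAAT and ATTGG in capitals, read on the minus strand at chr17:75779730-75780029 and chr5:135399182-135399481.
H3-3B: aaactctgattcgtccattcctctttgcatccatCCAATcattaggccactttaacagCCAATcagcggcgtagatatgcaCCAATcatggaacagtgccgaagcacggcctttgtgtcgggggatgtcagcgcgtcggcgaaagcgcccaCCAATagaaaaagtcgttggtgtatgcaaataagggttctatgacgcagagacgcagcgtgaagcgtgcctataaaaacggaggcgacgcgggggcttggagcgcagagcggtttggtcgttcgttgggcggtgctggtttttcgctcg
MACROH2A1: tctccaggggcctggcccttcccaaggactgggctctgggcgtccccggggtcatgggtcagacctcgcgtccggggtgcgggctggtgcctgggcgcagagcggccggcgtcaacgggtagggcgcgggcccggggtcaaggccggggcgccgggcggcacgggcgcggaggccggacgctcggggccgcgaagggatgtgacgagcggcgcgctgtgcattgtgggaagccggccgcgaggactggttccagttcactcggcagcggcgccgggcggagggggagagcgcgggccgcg
These matches describe the letters in the windows, and the division between fractions was not tested against them.

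Long reads gave the members' transcripts in chromatin in 2 libraries as TPM, each transcript's share of a library on a fixed total, which holds no depth. Levels here are per transcript and are not on the scale of the short reads. H1-10 had 75.0 and 54.6 TPM, H3-3B 53.1 and 81.8, H2AZ1 55.2 and 47.6, H3-3A 33.1 and 85.6, H2AZ2 33.6 and 28.6, and MACROH2A1 26.98 and 36.2. MACROH2A2 had 12.1 and 5.83, H2AX 7.48 and 17.6 and CENPA 2.39 and 8.36. With 2 libraries that differed as much as 2.39 and 8.36 TPM for CENPA, no order among the genes is drawn.

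For MACROH2A1 the spliced canonical transcript held 82.0% and 85.7% of the TPM of the gene, and for H3-3B it held 70.1% and 82.5%. Transcripts annotated as retaining an intron held 29.9% and 17.5% at H3-3B and 12.3% and 3.81% at MACROH2A1. At H2AZ1 the canonical transcript was listed at 0 in both libraries, and retained-intron transcripts held 36.8% and 100%, with an unannotated transcript of the assembler at 34.9 and 0 TPM. At H3-3A no transcript was above 0 in both libraries. ENST00000366813 had 33.1 and 0 TPM and ENST00000366816 had 0 and 85.1, so the form of H3-3A was not repeatable here. The only transcript named for CENPA that was above 0 was annotated as a nonsense-mediated decay form, and an assembled same-strand transcript over the whole gene that did not take its name had more, 8.38 and 14.7 TPM. H2AX and H1-10 were listed by their canonical single-exon transcripts, and at H2AX a longer assembled same-strand transcript that did not take its name had 14.3 and 15.8 TPM. The H3-3A copies H3P6 and H3P16 had more long-read TPM on their own strand than H3-3A in both libraries, 138 and 142 for H3P6 and 140 and 144 for H3P16. On the opposite strand H3P6 had 258 and 291 TPM and H3P16 127 and 145, so the strand of transcription at these copies cannot be read from them.

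**Figure D5:**
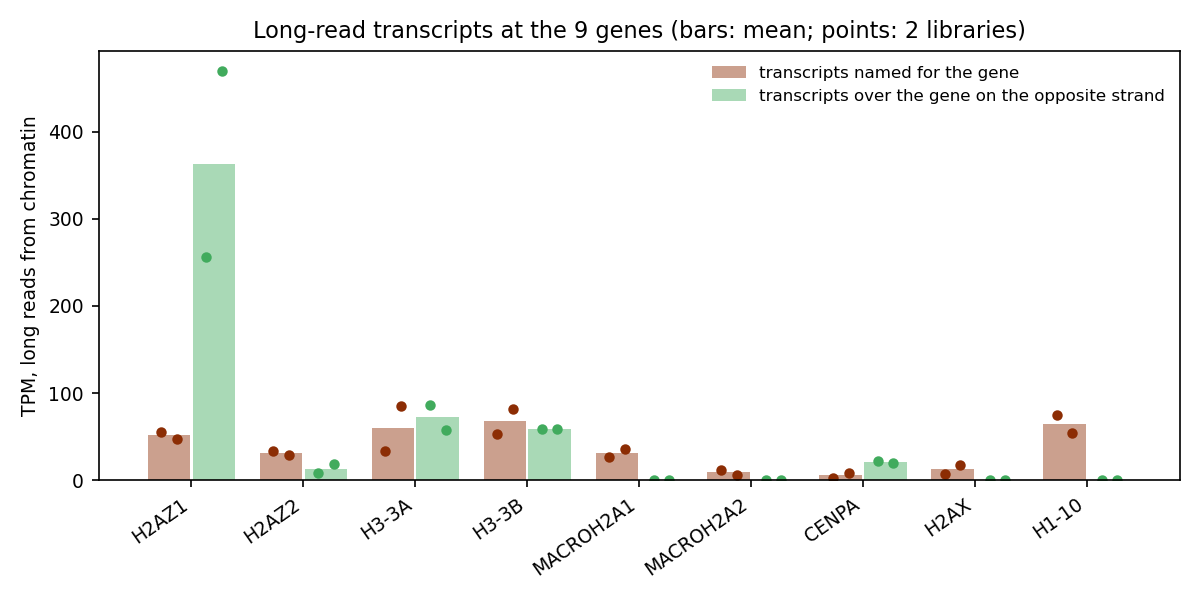
TPM of long-read transcripts from chromatin at each of the 9 genes, for transcripts named for the gene (brown) and transcripts that cover at least 80% of its canonical span on the opposite strand (green). Bars are means and points the 2 libraries. H2AZ1 had far more on the opposite strand, in a transcript that ran well beyond the gene, and MACROH2A1, MACROH2A2, H2AX and H1-10 had 0 there.

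Long transcripts on the opposite strand covered at least 80% of the canonical span of 5 members. At H2AZ1 such a transcript had 256 and 469 TPM, or 82.3% and 90.8% of the TPM on both strands. This transcript ran from 99948083 to 99966393 on chromosome 4, well beyond the gene at 99948086 to 99950355. Its TPM therefore belongs to a longer stretch than H2AZ1. At CENPA an opposite-strand transcript had 21.8 and 19.6 TPM, or 66.9% and 46.0% of both strands, the unnamed same-strand transcript included. At H3-3A they had 86.8 and 57.0 TPM, at H3-3B 59.0 and 59.1 and at H2AZ2 7.76 and 18.7. Among the directional short-read rows, 0 lay over any of the 9 members on the opposite strand by the same rule. Whether the long reads had been assigned to a strand before this table was made is not given in the sources used here, so the strand of these long-read values is uncertain.

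Coding genes whose profile over the 6 short-read libraries was among the most like the median profile of the 6 members were MKRN2, POR, TCF19 and RBM3. Their Euclidean distances on centred log2 values were 0.042 for MKRN2 and 0.063 to 0.067 for POR, TCF19 and RBM3, and their log2 differences ran from -1.27 for POR to -1.25 for TCF19.

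Short-read depth, as recovered reads, was 38895027 to 43804918 in chromatin and 75737601 to 79523938 in nucleoplasm. ERCC standards took 0.202 to 0.244% of the chromatin values and 0.0568 to 0.0749% of the nucleoplasm values. MALAT1 and NEAT1 were higher in chromatin, at 3.09 and 2.40, and GAPDH and B2M in nucleoplasm, at -2.35 and -2.11, which went with the titles by which libraries were grouped.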

How the data were processed

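RNA of HAP1 nuclei was measured in 3 chromatin and 3 nucleoplasm short-read libraries and 2 chromatin long-read libraries. Groups came from sample titles, since another label field names chromatin for all 8. 

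For short reads, the authors aligned 50-base reads to hg38 (HISAT2 2.1.0 in the submitters' processing notes), assembled and merged transcripts with StringTie and GENCODE release 35, and deposited a normalized signal for each gene, its count over the DESeq2 size factor of the library. Every nonzero value divided by the smallest in its library was whole within 0.01 (100%), which gave recovered reads. These rest on coverage, and depth limits only counting error. For long reads, the deposited values are TPM per transcript, from minimap2 and StringTie. All value columns belonged to a library.

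Rows were named from GENCODE release 44. Genes that reached 10 normalized counts in 3 or more libraries and spanned more than 200 bases were tested with limma 3.58.1 (R 4.3.3, mean-variance trend, log2 of the normalized count + 1, no covariates, Benjamini-Hochberg adjustment). The pseudocount makes the change of low genes look smaller. A call needed an adjusted p under 0.05 and a log2 difference above 2 or below -2. Scripts were tested on simulated data. Coding copies were searched with BLAST 2.17.0. Alternatives were DESeq2 1.42.0 and edgeR 4.0.16, fitted to the recovered reads, and other pseudocounts, filters, scalings and lengths, and fits without each library.

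The members and lists were chosen with earlier results of these data known. Text names the members, their opposite-strand and inner loci, their pseudogenes and, from each list, the lowest and highest log2 difference and the 2 highest levels. A further pair, H2AZ1 and H2AZ2, was planned and left out, since neither has a short-read row of its own. The copies of coding sequences were looked up, and the copies named, after the values were seen. The fractions were made from 3 cultures, but no source used here ties a replicate number to a culture across fractions. Deviations of same-numbered libraries from their group means correlated at 0.087, 0.053 and 0.063, so the fit without a replicate block was kept as the main one. Of the 5 coding genes most like the members in profile, 4 are named and 1 is not reported here.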

Additional observations from a re-analysis of the deposited data

How the results depend on the processing

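Of the members' differences, those of H3-3B, MACROH2A2, H1-10 and CENPA and of the 3 rows that hold H2AZ1, H2AZ2 and H2AX kept their direction and stayed past the adjusted p under every alternative run. MACROH2A1 kept its direction and passed under all but the ERCC scale (0.34, limma adjusted p = 0.0925). H3-3A reversed and passed with libraries scaled to an equal total (0.37, limma adjusted p = 0.000344). With DESeq2 on recovered reads it was at 0.0015 (SE 0.059, adjusted p = 0.982), with no direction to speak of. It passed as lower in chromatin with the ERCC scale (-1.41), without chromatin replicate 2 (-0.12, limma adjusted p = 0.0168) and in the sum with its copies (-0.55), an alternative chosen after seeing the data. The cause was not tested. The members higher in chromatin numbered 1, and 2 with the same total and 0 with the ERCC scale. Those called past 4-fold in nucleoplasm numbered 1, and 0 with the same total, 4 with the ERCC scale, 4 with a fold minimum of 2 and 4 with the adjusted p alone. Those called in chromatin numbered 0, and 1 with the same total, 1 with a fold minimum of 2 and 1 with the adjusted p alone. The share of all genes passing was not counted under these alternatives. The median of all genes tested moved to 0.44 with the same total and -1.33 with the ERCC scale, so these counts are not read against a background. Leaving out each library in turn gave 4 to 5 members higher in nucleoplasm and 1 in chromatin, a log2 ratio difference of 1.2005 to 1.37 for H3-3A over H3-3B and of 3.52 to 3.69 for MACROH2A1 over MACROH2A2.

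A replicate block changed no call of a member: H3-3A stayed at -0.09 (limma adjusted p = 0.129), 4 members were higher in nucleoplasm and 1 in chromatin, and the paired exact permutation test of either ratio gave 0.25. Each library correlated best with its own number, as a hint from the data. Using only annotated transcripts for H2AZ1 gave a mean of 34.0 TPM. Summing all rows that take a member's name gave no separate value, since each had 1 row. Depth, with at least 320 recovered reads for any member row in any library, did not limit these values, but the gene rows did: 4 of 9 members (H2AZ1, H2AZ2, H2AX and CENPA) could not be measured alone. H3-3A had a row of its own, but its call depended on whether reads placed at its 13 copies were counted with it.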
